A study of Mus musculus with 9 samples.

Results

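A set of 10 genes of cardiac stress were followed through left ventricle RNA of 3 groups of mice. They were the natriuretic peptides Nppa and Nppb, the actins Acta1 and Acta2, the light chains Myl4 and Myl7, and Ankrd1, Ctgf, Rcan1 and Uchl1. The 10 genes were chosen by name, out of 30128 in the table, and all 10 were present and passed the filter on low values. Myl4 and Myl7 passed it through a few libraries spread over the groups, so their passing says nothing about the groups. Each group held 3 libraries. The control mice were wild type, and their labels name no virus. The other groups were made in db/db mice, a model of obesity and diabetes that lacks a working long leptin receptor. The first of them had received AAV9_null, an empty adeno-associated virus of serotype 9 (null virus). The other had received AAV9_USP28, which carries the deubiquitinase USP28 behind the cardiac troponin T promoter, active in cardiomyocytes (USP28 virus). The stated aim was to test USP28 overexpression in diabetic cardiomyopathy. Genotype and virus cannot be told apart in a comparison with control, since no db/db group without virus and no control group with virus entered it. The labels give no strain, age, sex or time after injection. Nothing in them says whether each library is a separate animal, so the p-values may measure technical spread alone.

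Ventricular muscle makes little Nppa and Acta1 after birth, and load or injury switches them back on together with other genes of the fetal heart. Nppa and Nppb encode atrial and B-type natriuretic peptide, hormones that are cut from a precursor by corin or furin and act on guanylyl cyclase receptors to promote salt loss and vessel relaxation. Acta1 is the skeletal and Acta2 the smooth muscle form of actin, and both are made by immature heart muscle. Ankrd1 encodes a stretch-sensitive ankyrin repeat protein of the titin spring. Ctgf, named Ccn2 in current annotation, is a matrix-associated protein and a target of the transcription factors YAP and TEAD. Rcan1 encodes an inhibitor of the phosphatase calcineurin and is itself switched on by calcineurin and NFAT. Uchl1 encodes a ubiquitin hydrolase known mainly from neurons. Myl4 and Myl7 encode the atrial essential and regulatory myosin light chains.

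The sequences before the start sites of 5 members are shown because they hold the letters of classic sites for cardiac stress factors. They are RefSeq sequences on GRCm38.p6. The table used held promoters for 9 of the 10 members. Capitals mark GGAATG, the M-CAT element bound by TEAD factors, GATAA, bound by GATA factors, and the CArG box, bound by SRF, each searched on both strands, where the reverse forms are CATTCC and TTATC. No 2 marked matches overlap. For Nppa (chr4:148000472-148000721, plus strand), Acta1 (chr8:123894776-123895025, minus strand) and Myl7 (chr11:5898783-5899032, minus strand) the 250 bases before the start are given. For Nppb (chr4:147985795-147985821, plus strand) and Ankrd1 (chr19:36120040-36120062, chr19:36119953-36119975 and chr19:36119879-36119899, minus strand) only the sites and their flanks are given, because annotated transcripts reach into the window.
Nppa: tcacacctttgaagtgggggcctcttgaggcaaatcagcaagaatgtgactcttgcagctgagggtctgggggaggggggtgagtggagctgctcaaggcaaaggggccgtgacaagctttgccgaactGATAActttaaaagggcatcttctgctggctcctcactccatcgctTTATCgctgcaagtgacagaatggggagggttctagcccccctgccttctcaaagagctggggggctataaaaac
Nppb: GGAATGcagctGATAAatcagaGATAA
Acta1: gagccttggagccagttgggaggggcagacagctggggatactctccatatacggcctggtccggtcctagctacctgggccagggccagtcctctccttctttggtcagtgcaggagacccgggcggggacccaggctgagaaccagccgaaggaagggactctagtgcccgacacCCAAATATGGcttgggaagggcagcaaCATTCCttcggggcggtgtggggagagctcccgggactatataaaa
Ankrd1 first site: ctgccaaaGGAATGaccctctca
Ankrd1 second site: ctaagtctGGAATGaaaattcac
Ankrd1 last site: ctggaagaTTATCtcacccag
Myl7: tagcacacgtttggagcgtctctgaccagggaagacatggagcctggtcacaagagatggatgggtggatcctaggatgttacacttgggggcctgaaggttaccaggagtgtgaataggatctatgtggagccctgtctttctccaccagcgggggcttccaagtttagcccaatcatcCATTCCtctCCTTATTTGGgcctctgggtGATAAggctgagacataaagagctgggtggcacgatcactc
Nppb, Acta1, Acta2, Ankrd1 and Myl7 held GGAATG within 250 bases, 5 of the 9 members with a promoter, against 12.6% of 32851 promoters. Ankrd1 held it at 210 and 123 bases before the start, Nppb at 105. GATAA was found in 5 of the 9, with a pair in Nppa (121 and 75 bases before the start) and a pair in Nppb (94 and 83), against 22.6% of all promoters. A CArG box stood before Acta1 (73 bases) and Myl7 (61 bases), against 1.47% of all promoters. These are matches of letters in a window, not measured binding.

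The libraries held between 35970332 and 56497662 reads, as recovered from the deposited values, and values are in scaled RPKM, reads per kilobase of gene length relative to library depth, after scaling between libraries. Null-virus replicate 1 departed from its group by a mean of 0.334 on the log2 scale over all tested genes, against 0.145 to 0.214 in the other 8 libraries. USP28-virus replicate 1 stood apart in a few genes, described below. Many calls depended on which libraries were kept. Without USP28-virus replicate 1, 0 genes of all passed between the db/db groups, and with USP28 virus against control 1.33% passed as higher and 1.18% as lower. Such losses were not particular to that library. Between the db/db groups 0 genes also passed without null-virus replicate 2 or 3, or without USP28-virus replicate 2 or 3. USP28 virus against control had 1.67% higher and 1.39% lower without control replicate 2, and 1.93% and 2.25% without USP28-virus replicate 3. With null-virus replicate 1 left out, 15.5% of all genes passed as higher and 16.1% as lower with null virus against control. Mitochondrially encoded genes took 15.7% to 19.9% of reads. Usp28 was at 12.6 to 13.9 in control, 7.53 to 9.87 with null virus and 9.76 to 11.4 with USP28 virus; the fall from control to null virus passed the test (log2 -0.66, adjusted p = 0.0073, limma), while the difference between the db/db groups did not (log2 0.37, adjusted p = 0.19). The sources used here do not say whether transcripts of the vector were assigned to Usp28. The 6 ventricular markers, among them Myl2 and Myh6, summed to 17443 to 27560 across the libraries. Myh6 alone was at 11978 to 19755, so the sum rests mostly on that gene. It gives no measure of atrial tissue, and the label of ventricle was not tested by it.

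In db/db hearts given null virus, Ctgf and Uchl1 were higher than in control hearts and Acta1 and Rcan1 were lower. Neither natriuretic peptide passed the test. Of the 10 genes, 2 passed as higher, against 9.7% of the 14104 genes tested, and 2 as lower, against 12.5%. Groups did not overlap for 4 of 10, close to the 41.1% of all genes. The median log2 difference of the 10 was -0.11, beside -0.005 for all genes, and was 0.15 without null-virus replicate 1 and -0.70 without null-virus replicate 3. Between the USP28-virus and null-virus groups none of the 10 passed limma's test with Benjamini-Hochberg adjustment, where 0.298% of all genes passed as higher and 0.156% as lower. An unadjusted p under 0.05 was reached by 3 of them, Ankrd1, Ctgf and Uchl1, and for the same 3 the groups did not overlap, against 23.2% of all genes. The median of the 10 was 0.42, beside 0.013 for all genes, and rested on single libraries: it was -0.31 without USP28-virus replicate 1 and 0.03 without null-virus replicate 1. USP28-virus hearts compared with control had 0 members higher (5.35% of all genes) and 2 lower (6.3%), Acta1 and Rcan1, with groups that did not overlap for 6 of 10 (45.4%). The median of the 10 was 0.60, beside -0.003, although both calls were lower, and it was -0.25 without USP28-virus replicate 1, where 1 member passed, Acta1. The 3 comparisons share libraries, so their values are set side by side and not as independent results. In whole ventricle RNA, fewer cells of a type and less RNA per cell cannot be told apart.

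**Figure D1:**
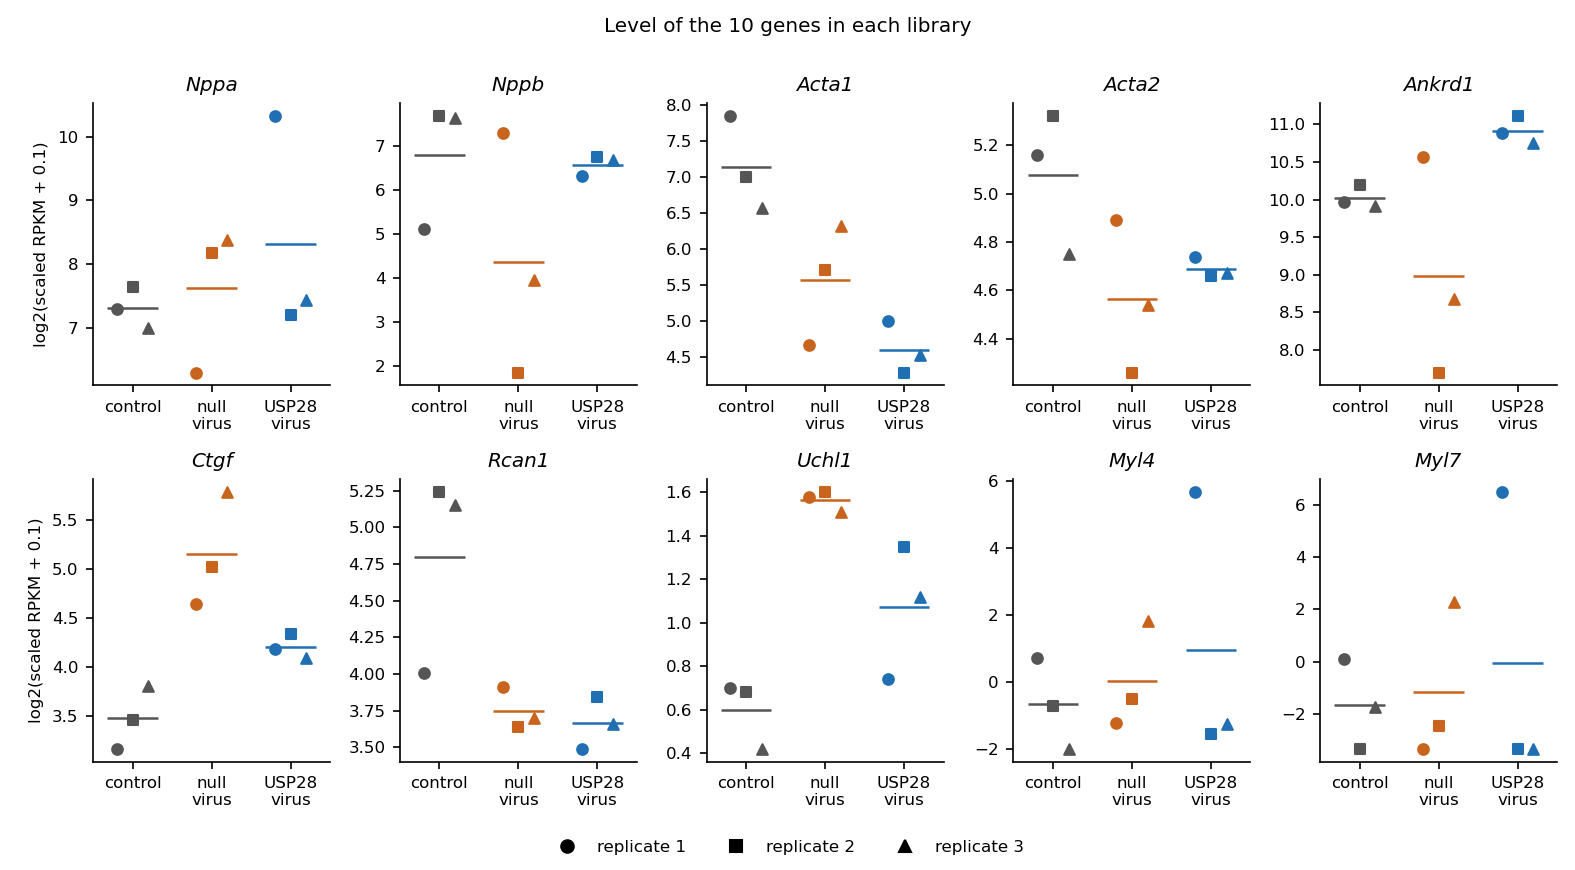
Level of each gene as log2(scaled RPKM + 0.1) in the 9 libraries, by group; marker shape gives the replicate number and bars are means of 3. Nppa, Myl4 and Myl7 each have their highest point in USP28-virus replicate 1, and the null-virus points of Nppb and Ankrd1 spread more widely than the control and USP28-virus points of the same genes.

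Nppa (chromosome 4, 148000722 to 148002079) was at 157, 200 and 128 scaled RPKM in control replicates 1, 2 and 3, at 78.5, 289 and 332 with null virus and at 1279, 147 and 174 with USP28 virus. A single library, USP28-virus replicate 1, was far above the other 8, and its group mates lay inside the control range. All 3 groups overlapped. Null-virus hearts differed from control by 0.30 on the log2 scale (SE 0.82, adjusted p = 0.81), and USP28-virus hearts from null-virus hearts by 0.71 (SE 0.82, 95% interval -1.16 to 2.57, adjusted p = 0.68). Without USP28-virus replicate 1 the last difference turned to -0.29 (adjusted p = 0.85). With null-virus replicate 1 also left out, an alternative chosen after seeing the data, Nppa was higher with null virus than in control (log2 0.97, adjusted p = 0.011) and the difference between the db/db groups was -0.96 (adjusted p = 0.063). An antisense gene model, Gm13054, overlaps 989 bases of Nppa on the other strand and was at 41.4 to 65.9 in control, 25.7, 92.8 and 112 with null virus and 418, 49.1 and 54.2 with USP28 virus. It was lowest and highest in the same libraries as Nppa. The sources used here give no strand setting for the counting, so reads of the pair cannot be told apart.

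Nppb (chromosome 4, 147985788 to 147987205) lies 13516 bases from Nppa and ran differently. It was at 34.3, 206 and 199 in control, at 159, 3.49 and 15.5 with null virus and at 79.8, 108 and 102 with USP28 virus. Null-virus replicates 2 and 3 were the lowest of the 9 libraries, while replicate 1 was within the control range. Those 2 libraries held 109 and 539 reads of Nppb, the other 7 between 1485 and 7826, so the low values were well counted. The USP28-virus libraries stayed within 1.35-fold of each other and inside the control range. Null-virus hearts differed from control by -2.44 (SE 1.22, adjusted p = 0.18), and USP28-virus from null-virus hearts by 2.21 (SE 1.22, 95% interval -0.55 to 4.98, adjusted p = 0.38). Without null-virus replicate 1, Nppb fell by 3.89 between control and null virus (SE 0.89, adjusted p = 0.016) and differed by 3.68 between the db/db groups (adjusted p = 0.058). A control library, replicate 1, was also low, at 34.3.

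The ratio of Nppa to Nppb within a library was 4.57, 0.971 and 0.644 in control, 0.493, 82.8 and 21.4 with null virus and 16.0, 1.36 and 1.70 with USP28 virus. It was highest in null-virus replicates 2 and 3, where Nppa was above every control and Nppb below every control. These ratios overlap between all groups.

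The other genes of the natriuretic system were read from a list of 17, of which 13 were tested. With null virus against control 2 were higher and 2 lower, none of them Nppa or Nppb, where 9.7% and 12.5% of all genes passed in those directions. Npr1, the guanylyl cyclase receptor of both peptides, was at 2.17 ± 0.0906 scaled RPKM in control (SD, n = 3) and rose to 3.91 ± 0.835 (log2 0.80, adjusted p = 0.0094). A pair of enzymes fell: Ide, insulin-degrading enzyme, which also degrades natriuretic peptides (3.86 ± 0.205 to 2.61 ± 0.24, log2 -0.55, adjusted p = 0.0086), and Pcsk6, a convertase that activates corin (4.63 ± 0.527 to 2.85 ± 0.35, log2 -0.68, adjusted p = 0.016). The call of Pcsk6 held in 7 of 9 fits with 1 library left out. Corin itself was at 9.62 to 10.9 in control, 9.73 to 16.4 with null virus and 12.7 to 13.2 with USP28 virus. The clearance receptor Npr3 was at 1.31 to 1.86, 1.75 to 3.20 and 1.71 to 2.96 in the same order. Against control, USP28-virus hearts had 2 of the 13 higher and 0 lower: Npr2, the receptor of C-type natriuretic peptide (4.84 ± 0.174 to 7.43 ± 0.42, log2 0.61, adjusted p = 0.014), and Npr1 (log2 0.75, adjusted p = 0.021). Of all genes, 5.35% passed as higher and 6.3% as lower in this comparison. The calls of Npr2 and Npr1 held in 5 and 4 of 9 fits with 1 library left out. Without USP28-virus replicate 1 neither passed (adjusted p = 0.064 for Npr2 and 0.079 for Npr1), and 0 of the 13 did. None of the 13 passed between the db/db groups. Npr1 did not overlap control in any db/db library, at 2.06 to 2.23 in control and 2.94 to 4.4 in the other 6. Without null-virus replicate 1, 7 of the 13 were higher and 3 lower with null virus, Nppb among the latter, where 15.5% and 16.1% of all genes passed in those directions.

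Acta1, the skeletal actin (chromosome 8, 123891769 to 123894751), was lower in both db/db groups than in control. It was at 229, 127 and 94.9 in control, at 25.3, 52.0 and 79.4 with null virus and at 32.0, 19.3 and 22.9 with USP28 virus. Every control library was above every db/db library, and the USP28-virus range overlapped null virus at its lower end. Acta1 fell by 1.57 from control to null virus (SE 0.44, adjusted p = 0.035) and by 2.53 from control to USP28 virus (SE 0.44, adjusted p = 0.011). The fall to USP28 virus passed with each library left out in turn, while the fall to null virus passed in 3 of 9 such fits. Between the db/db groups the difference was -0.96 (95% interval -1.96 to 0.04, adjusted p = 0.31). A read-through gene model, Gm20388, spans the 2983 bases of Acta1 on the other strand and was at 7.21 to 11.1 in all libraries.

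Acta2, the smooth muscle actin (chromosome 19, 34241090 to 34255336), was at 35.6, 40.0 and 26.9 in control, at 29.5, 19.1 and 23.1 with null virus and at 26.6, 25.2 and 25.4 with USP28 virus. The USP28-virus libraries, within 1.06-fold of each other, were just below the lowest control. Differences did not pass (null virus against control -0.52, adjusted p = 0.071; USP28 virus against control -0.39, adjusted p = 0.20). Without null-virus replicate 1 Acta2 fell by 0.66 to null virus (adjusted p = 0.017). Smooth muscle markers other than Acta2, 7 in all, summed to 114 to 159 in control, 88.7 to 152 with null virus and 138 to 159 with USP28 virus, and none of them passed in any comparison. Their part in the Acta2 values was not tested.

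The cardiac actin Actc1, which makes up most actin of the working ventricle, fell from 1715 ± 75.7 to 562 ± 167 with null virus (log2 -1.65, adjusted p = 0.0014) and to 780 ± 74.8 with USP28 virus (log2 -1.14, adjusted p = 0.010). The share of Acta1 in the sum of Acta1 and Actc1 was 12.1%, 6.58% and 5.34% in control, 3.25%, 10.3% and 14.2% with null virus and 4.4%, 2.31% and 2.69% with USP28 virus. The USP28-virus shares were below every control share, and the null-virus shares spread over the control range and beyond both ends. Among 15 tested sarcomere isoforms, Acta1, Actc1 and Tnnt1, the slow skeletal troponin T, were the 3 that passed, all lower, in both comparisons with control. Of all genes, 12.5% were lower with null virus and 6.3% with USP28 virus. Without USP28-virus replicate 1 the fall of Actc1 to USP28 virus did not pass (adjusted p = 0.054), leaving 2 of the 15. Tnnt1 went from 22.2 ± 1.63 to 12.6 ± 2.71 with null virus (log2 -0.83, adjusted p = 0.0074) and 11.1 ± 1.01 with USP28 virus (log2 -1.0, adjusted p = 0.0076). Skeletal muscle markers other than Acta1 summed to 1.68 to 2.63 across all libraries.

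**Figure D2:**
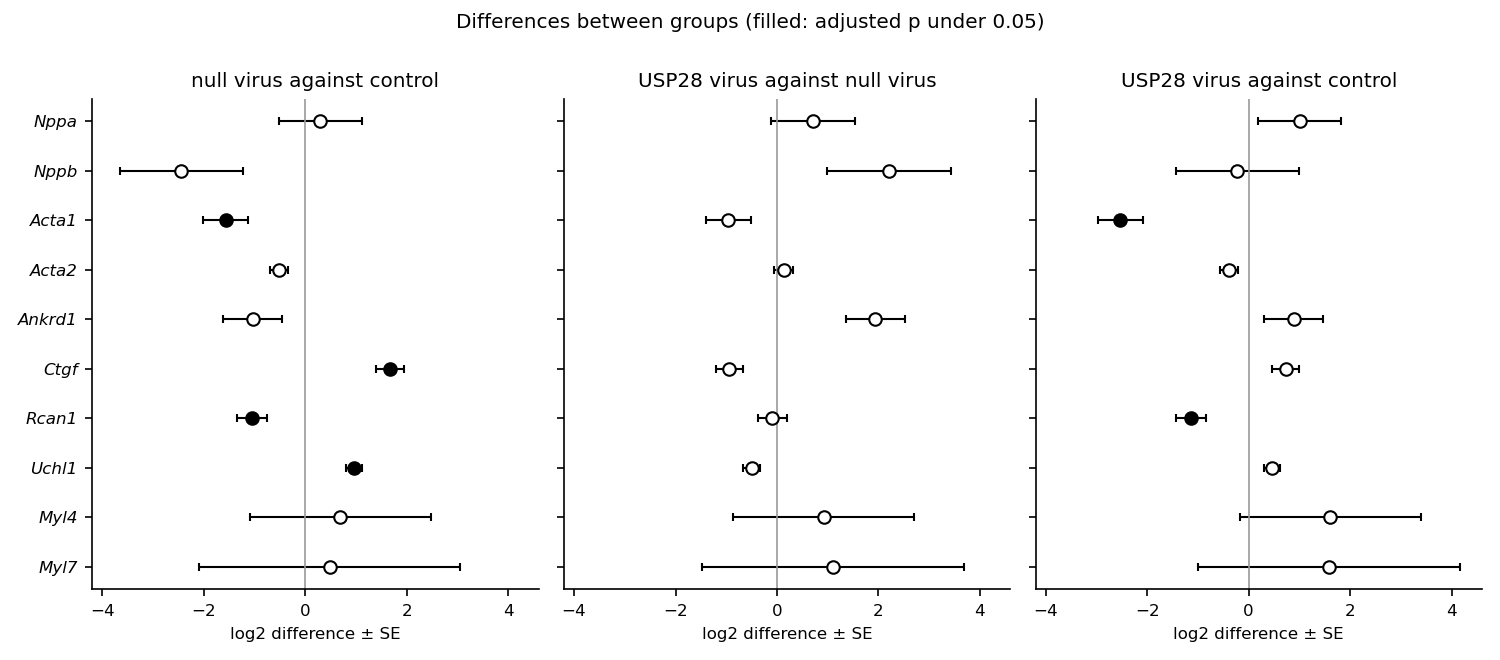
Log2 difference with its standard error for each of the 10 genes in the 3 comparisons; filled points have an adjusted p under 0.05. Filled points are Ctgf, Uchl1, Acta1 and Rcan1 for null virus against control and Acta1 and Rcan1 for USP28 virus against control, and the widest bars are those of Myl7 and Myl4.

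The atrial light chains were near 0 in most libraries and high in 1. Myl7 (chromosome 11, 5896637 to 5898782) was at 0.979, 0 and 0.202 in control, at 0, 0.0848 and 4.72 with null virus and at 89.4, 0 and 0 with USP28 virus. The high library held 2932 reads of Myl7, null-virus replicate 3 held 124 and control replicate 1 held 32, while 4 libraries held none, where 3 reads would be worth 0.105 to 0.166. Myl4 (chromosome 11, 104550663 to 104595753) was at 1.53, 0.508 and 0.15 in control, at 0.324, 0.599 and 3.44 with null virus and at 50.3, 0.24 and 0.315 with USP28 virus. Both genes were highest in USP28-virus replicate 1, next in null-virus replicate 3 and then in control replicate 1. No group difference passed, and for each the USP28-virus group differed from null virus in the other direction without that library (Myl7 -2.15 and Myl4 -1.43, in place of 1.11 and 0.92). Reads of Myl4 may be shared with overlapping antisense models, the most abundant of which, Gm11665, reached 1.61.

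USP28-virus replicate 1 carried more than the light chains. Among the 15 genes that departed most upward from its group mates, a list chosen after seeing the values, were Myl7, Myl4, Dkk3, Sbk3, Nppa and Sfrp5; the other 9 were short RNA genes at 0.62 to 3.17. Sln, the atrial inhibitor of the calcium pump, was listed at 0 in 7 libraries, at 0.238 in null-virus replicate 3 and at 4.56 in USP28-virus replicate 1. Dkk3 was at 9.05 there and at 0.306 to 2.56 in the other 8, and Stard10 at 19.1 against 6.03 to 12.2. The remaining atrial markers did not all follow: Kcnj3, a channel subunit enriched in atrium, was at 29.5 there and at 45.9 in null-virus replicate 2, and Bmp10 was at or under 0.043 in all 9. The 8 atrial markers outside the 10 genes summed to 38.0 to 44.8 in control, 49.2 to 67.8 with null virus and 42.8 to 76.4 with USP28 virus. Myl7 made up 4.76% of the sum of Myl7 and its ventricular counterpart Myl2 in USP28-virus replicate 1 and at most 0.308% elsewhere, and Myl4 made up 2.33% of the sum with Myl3 there and at most 0.16% elsewhere. The part of atrial tissue in the Nppa value of this library was not tested.

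**Figure D3:**
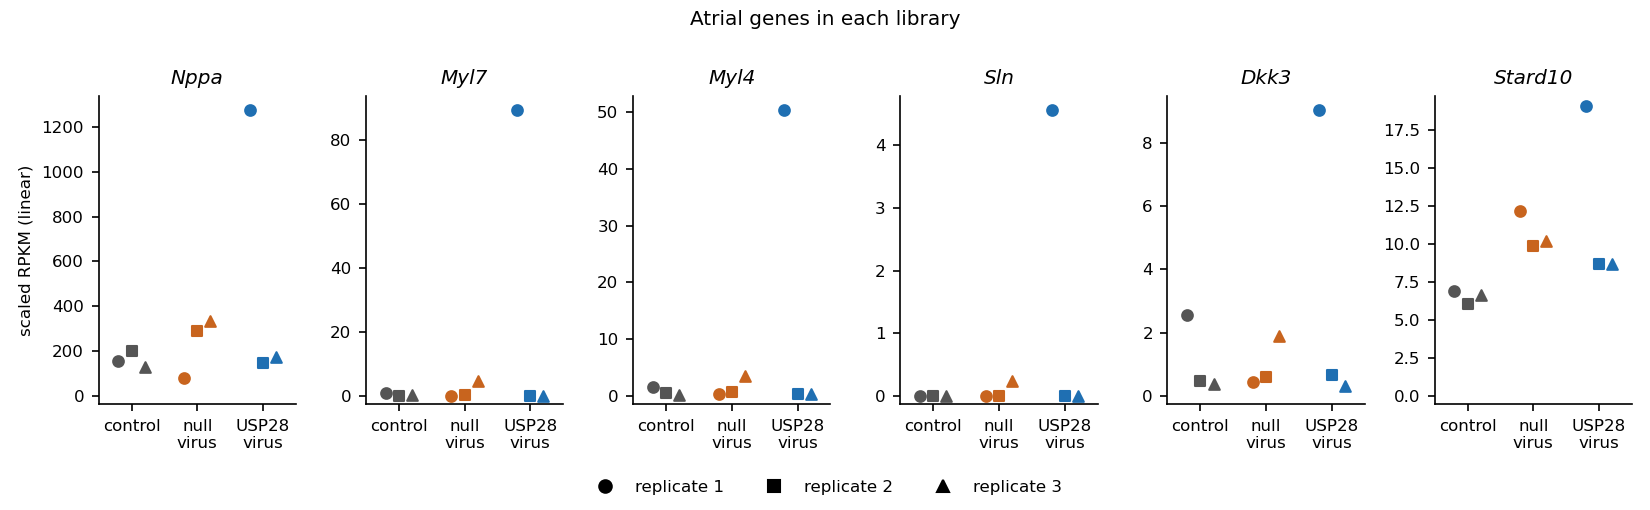
Scaled RPKM (linear axes) of Nppa, Myl7, Myl4, Sln, Dkk3 and Stard10 in each library, by group and replicate. In all 6 panels the highest point is USP28-virus replicate 1, at 1279 for Nppa and 89.4 for Myl7.

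Ankrd1 (chromosome 19, 36111965 to 36119844), with the highest group means of the 10 per length, was at 1005, 1176 and 960 in control, at 1518, 208 and 410 with null virus and at 1898, 2205 and 1739 with USP28 virus. Every USP28-virus library was above every other library. In the null-virus group replicate 1 was above the controls and replicates 2 and 3 below them. The USP28-virus group differed from null virus by 1.94 (SE 0.58, 95% interval 0.62 to 3.25, adjusted p = 0.16) and from control by 0.89 (SE 0.58, adjusted p = 0.35). Without null-virus replicate 1 Ankrd1 passed in all 3 comparisons: it fell by 1.82 from control to null virus (SE 0.27, adjusted p = 0.0029), rose by 2.72 from null virus to USP28 virus (SE 0.27, adjusted p = 0.0036) and rose by 0.90 from control to USP28 virus (adjusted p = 0.029). Of all genes in that fit, 16.1% were lower with null virus against control. As higher, 3.06% passed between the db/db groups and 13.8% with USP28 virus against control. Each of the 3 calls held in 1 of 9 fits with 1 library left out. Without USP28-virus replicate 1 the rises had adjusted p-values of 0.34 and 0.52. A fit of the control and USP28-virus groups alone also passed (adjusted p = 0.0033), 1 of 11 other settings to do so. There 3782 genes passed in place of 1644.

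Null-virus replicates 2 and 3 were the lowest 2 of the 9 libraries for both Ankrd1 and Nppb, and replicate 1 was high in both. Over the 9 libraries the levels of Ankrd1 and Nppb, each less its own mean, differed by a root mean square of 1.10 on the log2 scale, against 2.42 for Nppa and Nppb. The value of 1.10 is below the spread of Nppb about its own mean, 1.84, but not below that of Ankrd1, 1.05. On this measure Ankrd1 lay nearer to Acta2 than to Nppb, so the likeness is not particular to the pair. These points share depth and the same libraries, and the values are a description.

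Of 12 stretch sensors of the titin spring and Z-disc, 5 were lower and 0 higher with null virus than in control, and 5 lower with USP28 virus. Ankrd1 was not among them. Of all genes, 12.5% were lower and 9.7% higher with null virus against control, and 6.3% lower with USP28 virus against control. The median log2 difference of the list was -0.61 and -0.59, beside -0.005 and -0.003 for all genes. Xirp2, which binds actin at intercalated discs, fell from 68.1 ± 0.64 to 31.4 ± 4.93 with null virus (log2 -1.13, adjusted p = 0.0010) and to 34.8 ± 1.97 with USP28 virus (log2 -0.97, adjusted p = 0.0038). Nebl, nebulette of the Z-disc, and Fhl2, a LIM protein bound to titin, fell to null virus by 1.05 and 0.81 and to USP28 virus by 0.79 each. Without USP28-virus replicate 1, 1 of the 12 was lower with USP28 virus, Xirp2, in place of 5, and Nebl and Fhl2 had adjusted p-values of 0.053 and 0.060. Ankrd23, a close relative of Ankrd1, was at 247, 393 and 367 in control, at 226, 50.1 and 71.4 with null virus and at 188, 208 and 181 with USP28 virus. The ratio of Ankrd1 to Ankrd23 was 2.62 to 4.07 in control, 4.15 to 6.71 with null virus and 9.63 to 10.6 with USP28 virus, 3 ranges that do not overlap. Unlike Ankrd1 itself, the ratio in null-virus replicate 1, 6.71, was close to that of its group mates. Without null-virus replicate 1, 8 of the 12 stretch sensors were lower with null virus, Ankrd1 among them, and 1 higher, where 16.1% of all genes passed as lower and 15.5% as higher.

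Ctgf (chromosome 10, 24595442 to 24598683) was at 8.87, 10.9 and 14.0 in control, at 24.9, 32.4 and 54.9 with null virus and at 18.1, 20.1 and 17.0 with USP28 virus. The 3 groups did not overlap, with null virus highest and USP28 virus between. Ctgf rose by 1.67 from control to null virus (SE 0.27, adjusted p = 0.0044), a mean 3.33 times that of control, and passed in all 9 fits with 1 library left out. USP28-virus hearts were at 0.492 times the null-virus mean, a log2 difference of -0.94 that did not pass (95% interval -1.56 to -0.33, adjusted p = 0.15), and at 0.73 above control (adjusted p = 0.12). Without null-virus replicate 1 these passed too (-1.20, adjusted p = 0.037, and 0.73, adjusted p = 0.046). In that fit 3.62% of all genes were lower between the db/db groups and 13.8% higher with USP28 virus against control. These 2 calls held in 1 and 2 of 9 fits with 1 library left out. Without USP28-virus replicate 1 neither passed (adjusted p = 0.33 and 0.26). The antisense model Gm15270 overlaps 1667 bases of Ctgf on the other strand and was at 6.84 to 11.3, 15.6 to 36.8 and 12.6 to 14.1 in control, null-virus and USP28-virus libraries, so the caution given for Nppa holds here.

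The close relative of Ctgf in the CCN family, Cyr61, was at 6.03 to 11.5 in control, 4.99 to 7.07 with null virus and 6.66 to 8.61 with USP28 virus, and did not pass. The ratio of Ctgf to Cyr61 was 1.09 to 1.47 in control, 3.52 to 11 with null virus and 2.34 to 2.55 with USP28 virus. Of the 18 tested YAP and TEAD targets, which include Ctgf and Ankrd1, 2 were higher and 2 lower with null virus: Ctgf and Igfbp3, a binding protein of insulin-like growth factors (1.68 ± 0.138 to 3.08 ± 0.247, log2 0.84, adjusted p = 0.0049), rose, and Dock5, an exchange factor for Rac (log2 -1.39, adjusted p = 0.0035), and Ptpn14, a phosphatase that binds YAP (log2 -0.45, adjusted p = 0.049), fell. The call of Ptpn14 held in 1 of 9 fits with 1 library left out. For this list and those that follow, 9.7% of all genes were higher and 12.5% lower with null virus against control. With USP28 virus against control the shares were 5.35% and 6.3%. With USP28 virus against control Igfbp3 rose (log2 0.93, adjusted p = 0.0071) and Dock5 fell (log2 -1.0, adjusted p = 0.021), 1 in each direction. Without USP28-virus replicate 1 Igfbp3 passed (adjusted p = 0.043) and Dock5 did not (0.079), and the call of Dock5 held in 5 of 9 such fits. Tead1, the main TEAD factor of heart muscle, fell from 4.13 ± 0.106 to 1.92 ± 0.443 with null virus (log2 -1.09, adjusted p = 0.0042) and to 2.06 ± 0.3 with USP28 virus (log2 -0.98, adjusted p = 0.012). The second of these calls held in 6 of 9 fits and not without USP28-virus replicate 1 (adjusted p = 0.062). Tead1 was 1 of 5 lower genes among 14 of SRF and its cofactors with null virus, with Mef2a (log2 -0.66) and Mef2c (log2 -0.93), whose calls each held in 7 of 9 fits, and 2 were higher. In the TGF-beta pathway, a known inducer of Ctgf, 2 of 14 were higher and 1 lower with null virus. Smad7, its feedback inhibitor, was among those that rose (log2 0.77, adjusted p = 0.0063), and Smad2, which carries the signal to the nucleus, fell (log2 -0.37, adjusted p = 0.047), a call that held in 0 of 9 fits with 1 library left out. Fibroblasts also make Ctgf. Of 7 fibroblast markers, 4 were lower with null virus, with Lum at -1.32. The summed level of the 7 was 95.5 to 112 in control and 95.2 to 109 with null virus. That sum rests mostly on Dcn (46.7 to 62.4 in control, 57.3 to 70.3 with null virus) and Dpt (30.4 to 32.5, 23.5 to 26.5). Of 6 endothelial markers 2 were higher, Cldn5 (log2 1.43) and Egfl7 (log2 0.57), with a summed level of 72.8 to 85.7 in control, 87.7 to 113 with null virus and 96.2 to 110 with USP28 virus. The part of cell makeup in the Ctgf values was not tested.

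**Figure D4:**
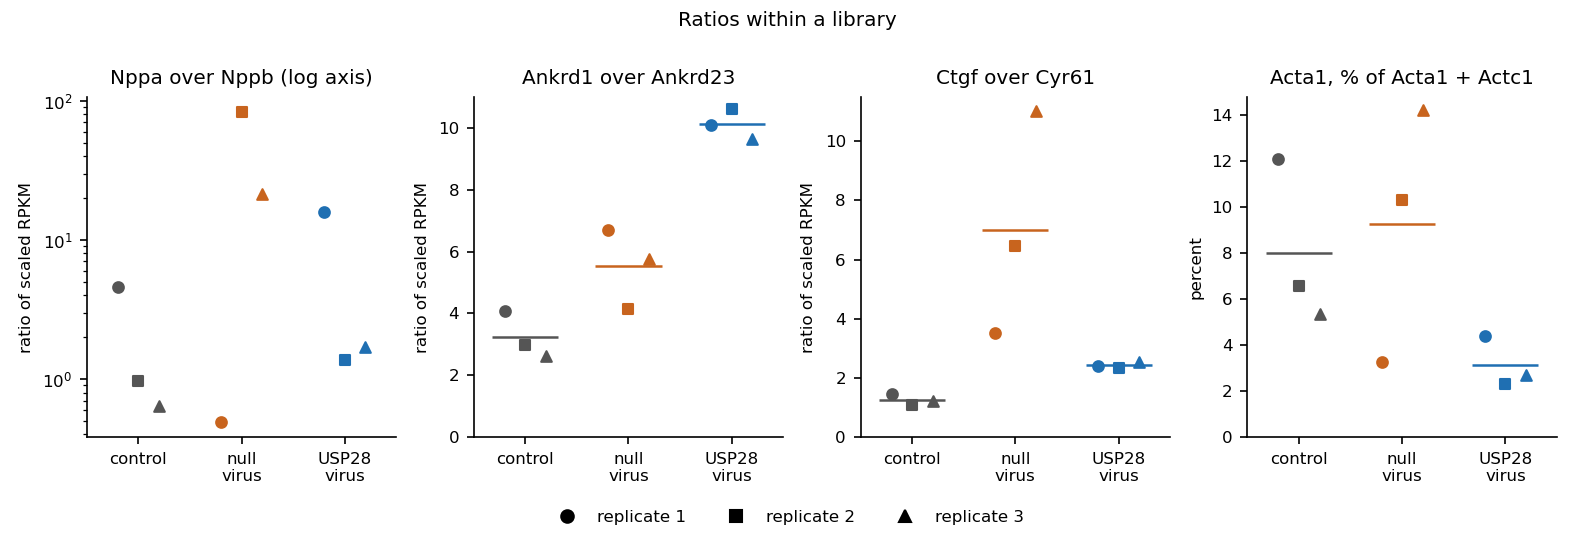
Ratios within each library of Nppa to Nppb (log axis), Ankrd1 to Ankrd23 and Ctgf to Cyr61, and Acta1 as a percentage of Acta1 plus Actc1, by group and replicate; bars are means where the axis is linear. The Ankrd1 to Ankrd23 ratio lies at 2.62 to 4.07, 4.15 to 6.71 and 9.63 to 10.6 in control, null-virus and USP28-virus libraries.

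Rcan1 (chromosome 16, 92391953 to 92466146) was at 16.0, 37.6 and 35.3 in control, at 15, 12.3 and 12.9 with null virus and at 11.1, 14.2 and 12.6 with USP28 virus. All 6 db/db libraries were below the lowest control, but control replicate 1 was close to them. Rcan1 fell by 1.05 to null virus (SE 0.29, adjusted p = 0.033) and by 1.14 to USP28 virus (SE 0.29, adjusted p = 0.037). These calls held in 4 and 2 of 9 fits with 1 library left out. Between the db/db groups the difference was -0.09 (95% interval -0.74 to 0.57). Of 15 genes of calcineurin and NFAT, 3 were lower with null virus and 0 higher, where 12.5% and 9.7% of all genes passed in those directions. Besides Rcan1 they were Ppp3r1, the regulatory subunit of calcineurin (11.9 ± 0.568 to 6.86 ± 1.1, log2 -0.79, adjusted p = 0.0043), and Akap5, which anchors calcineurin at membranes (0.776 ± 0.1 to 0.0914 ± 0.0336, log2 -2.20, adjusted p = 0.0016). Akap5 was the 1 gene of the 9 pathway lists other than members that passed between the db/db groups, where it rose to 0.564 ± 0.142 with USP28 virus (log2 1.79, adjusted p = 0.039), and its 3 ranges did not overlap except for control and USP28 virus. This call held in 1 of 9 fits with 1 library left out, the one without null-virus replicate 1 (adjusted p = 0.012), and not without USP28-virus replicate 1 (0.14). The null-virus values of Akap5, 0.0574, 0.125 and 0.0921, are close to the 0.1 added before taking logs. The size of its log2 differences therefore depends on that setting. Those 3 values are also under the filter of RPKM 0.5, which Akap5 passed through control and USP28-virus libraries alone. With USP28 virus against control, 2 of the 15 were lower, Rcan1 and Ppp3r1 (log2 -0.52, adjusted p = 0.033), where 6.3% of all genes were lower. The call of Ppp3r1 held in 3 of 9 fits, and without USP28-virus replicate 1 it was lost (adjusted p = 0.13), as was that of Rcan1, leaving 0 of the 15. Rcan2, the relative of Rcan1 and far more abundant, was at 153 to 173 in control, 168 to 182 with null virus and 127 to 143 with USP28 virus.

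Uchl1 (chromosome 5, 66676091 to 66687234) was low throughout, at 1.53, 1.50 and 1.24 in control, 2.88, 2.94 and 2.75 with null virus and 1.57, 2.44 and 2.07 with USP28 virus, from 102 to 200 reads a library. The 3 groups did not overlap, though USP28-virus replicate 1 lay only just above control. Uchl1 rose by 0.96 from control to null virus (SE 0.16, adjusted p = 0.0049), a mean 2.01 times that of control, and passed in all 9 fits with 1 library left out. Between the db/db groups the difference was -0.50 (SE 0.16, adjusted p = 0.18). Of the 4 tested UCH deubiquitinases, Uchl5, which acts at the proteasome and on chromatin, was the second to rise with null virus (8.54 ± 0.286 to 16.3 ± 2.28, log2 0.92, adjusted p = 0.0023), and it stood at 8.81 to 11.1 with USP28 virus. Uchl3 and Bap1 did not pass. Of all genes, 9.7% passed as higher with null virus against control. Nerve and Schwann cell markers other than Uchl1 summed to 3.12 to 4.29 in control, 4.04 to 5.26 with null virus and 4.03 to 4.85 with USP28 virus, and none of the 4 tested passed with null virus; Cdh19, of Schwann cells, rose from control to USP28 virus (log2 0.78, adjusted p = 0.031), a call that held in 3 of 9 fits with 1 library left out and not without USP28-virus replicate 1 (adjusted p = 0.095). Their part in the Uchl1 values was not tested. An antisense model, Uchl1os, overlaps 408 bases of Uchl1 and was at 0.308 to 0.746.

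The genes that ran most like 4 of the members were found by the root mean square difference of centred log2 levels over the 9 libraries. They were chosen from the same values, so their differences between groups largely follow from the choice. Those differences are a description and no support for the differences of the members. Nppa was most like Sbk2 and Podn (0.46 each) and a microRNA gene, Mir7001 (0.68). Podn, a secreted proteoglycan, was at 20.4 in USP28-virus replicate 1 and 3.27 to 8.46 elsewhere. Nppb was most like Tnfrsf12a, the receptor of the cytokine TWEAK (0.98), and then the short RNA genes n-R5s159 and Snord14c (1.0 and 1.05); Tnfrsf12a was at 8.04, 21.2 and 18.1 in control, 33.6, 3.04 and 3.8 with null virus and 11.1, 12.1 and 9.44 with USP28 virus, and was like Nppb low in null-virus replicates 2 and 3 and in control replicate 1 against its group mates. Ankrd1 was most like Nmrk2, a kinase of nicotinamide riboside in muscle (0.48), Scin (0.49) and Hmgn2 (0.52). Ctgf was most like Cyp4b1 (0.27), Fmo2 (0.30) and Tmem100 (0.31), 3 genes that rose with null virus (log2 1.64, 1.52 and 1.87). Cyp4b1 was at 3.16 to 3.37 in control, 9.15 to 11.7 with null virus and 5.79 to 6.42 with USP28 virus, and its fall between the db/db groups passed (log2 -0.75, adjusted p = 0.032), but in 1 of 9 fits with 1 library left out, the one without null-virus replicate 1. Each member's own spread about its mean was 1.08 for Nppa, 1.84 for Nppb, 1.05 for Ankrd1 and 0.75 for Ctgf.

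**Figure D5:**
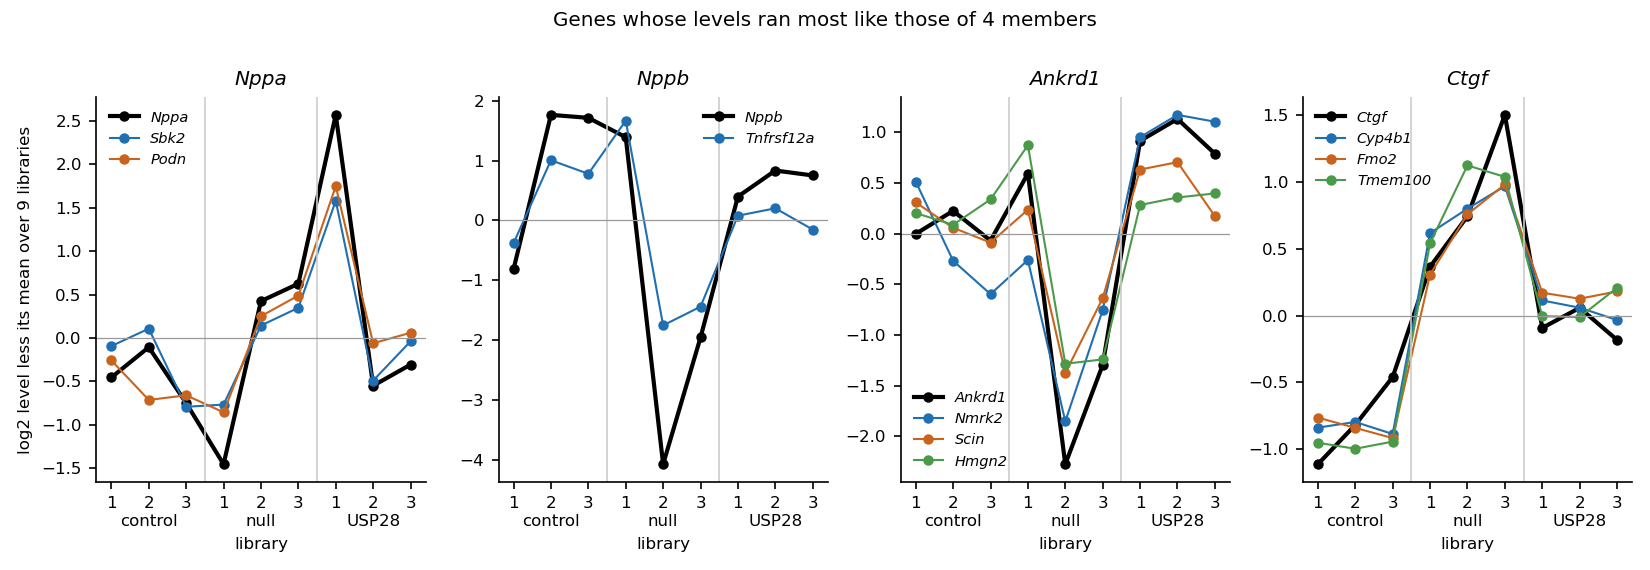
Log2 level less its own mean over the 9 libraries for Nppa, Nppb, Ankrd1 and Ctgf (black) and the genes most like each, with short RNA genes left out; lines join libraries of no order. The Nppb and Ankrd1 lines both dip in null-virus replicates 2 and 3, and the Nppa lines peak in USP28-virus replicate 1.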

How the data were processed

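Polyadenylated RNA of left ventricle was read as directional paired-end libraries, 3 per group, per the labels' protocols. HISAT2 and the build GRCh38, a human build, are named per the submitters' processing notes; the deposited coordinates are mouse, and 25467 of 30128 gene spans equal GENCODE M21, so positions are on GRCm38. No counting program or strand setting is given in the sources used here. The authors deposited RPKM values. For 99.9839% of values above 0 they were whole multiples of 1 read within 0.01, which gave reads and depth (35970332 to 56497662 reads per library). The floor of 3 reads covers counting error only, and the 95% intervals are those of limma and rest on the spread between libraries.

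RPKM was scaled by a trimmed mean of M values (30% of ratios, 5% of levels trimmed), and log2(scaled RPKM + 0.1) was fitted over all 9 libraries, for the 14104 genes that reached RPKM 0.5 in 3 or more, using limma 3.58.1 in R 4.3.3 and empirical Bayes moderation with trend and robust settings. Fold changes of low genes are understated on this scale. P-values were adjusted by Benjamini-Hochberg over all genes, with a threshold of 0.05; "rose" and "fell" mean past it. The script was tested on simulated data. An exact permutation test of 3 against 3 cannot go below 0.1, the value of every member whose groups do not overlap. No pair of libraries of a group was identical (chi-square per degree of freedom 20.8 to 160). The members and lists were chosen with earlier results of these data known. Named genes are all 10 members, up to 3 others per pathway list and comparison with the smallest p past the threshold, and the 3 genes most like each of 4 members, gene models left out and some items not reported here; other genes, such as Ankrd23 and Corin, were named as relatives or markers. Alternatives were other scalings, pseudocounts, filters, priors, 2-group fits, a replicate block, voom on recovered reads, removal of mitochondrial genes, and omission of each library in turn.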

Additional observations from a re-analysis of the deposited data

How the results depend on the processing

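Under 20 alternatives, 546 member differences kept their direction and their side of the threshold; 27 were no longer past it, 11 newly passed and 13 turned direction, all of the last with a library left out. Ctgf and Uchl1 for null virus against control, and Acta1 for USP28 virus against control, passed in every one. The number of members past the threshold for null virus against control was 4 and fell to 2 without the filter on low values and to 2 in a fit of those groups alone. For USP28 virus against control it was 2, and 1 with library totals alone as scaling and 1 without the filter. Over all genes the counts past the threshold were 3131, 64 and 1644 for null virus against control, USP28 virus against null virus and USP28 virus against control. They were 31 and 921 for the last 2 with library totals alone, 2057, 10 and 891 with no filter, 1656, 0 and 3782 in 2-group fits, and 179 for USP28 virus against null virus with voom on the recovered reads.

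With each library left out in turn, members past the threshold ranged from 2 to 6 for null virus against control, 0 to 2 for USP28 virus against null virus and 1 to 4 for USP28 virus against control, the highest each time without null-virus replicate 1. All-gene counts ranged from 1461 to 4456, 0 to 941 and 355 to 4131. Log2 differences that turned direction ranged, for null virus against control, from -0.078 to 0.98 for Nppa, -0.21 to 1.40 for Myl4 and -1.23 to 1.58 for Myl7. For USP28 virus against null virus they ranged from -0.29 to 1.26 for Nppa, -0.019 to 0.28 for Acta2, -0.17 to 9e-04 for Rcan1, -1.43 to 2.17 for Myl4 and -2.15 to 2.82 for Myl7. For USP28 virus against control they ranged from -1.07 to 0.21 for Nppb, -0.74 to 2.86 for Myl4 and -1.67 to 3.24 for Myl7. With null-virus replicate 1 and USP28-virus replicate 1 both left out, chosen after seeing the data, 1 member (Ankrd1) and 440 genes passed between the db/db groups and 2642 genes against control. The differences between the db/db groups were then -0.96 for Nppa, 0.072 for Rcan1, -2.08 for Myl4 and -3.25 for Myl7, and those against control -0.75 for Myl4 and -1.68 for Myl7. The cause of these shifts was not tested.

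The replicate numbers did not pair the samples (correlation of same-numbered deviations -0.029 to 0.06). With a replicate block, Acta1 for null virus against control had an adjusted p of 0.066, and 0 genes passed between the db/db groups. Myl7 had no value at the stricter filter. Depth limits Myl7, with at most 6 reads in 6 libraries.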
